A study of Mus musculus with 29 samples.

Results

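The 10 genes described here are Prr13, Khnyn, A230050P20Rik, Epb41, Osbpl8, Pfn1, Litaf, Twf1, Ap2s1 and Nek6, which are 10 of the 22028 coding genes counted in the series. They were picked by symbol because their p-values between 5 and 10 months of age were small in VEH liver, in TBT liver or in both. The age comparisons therefore chose them and are given below as a description, with no test. No threshold on p was stated with the choice. RNA was sequenced from adenomas and livers of male mice whose dams drank tributyltin (TBT) while pregnant and nursing, and from livers of mice labelled VEH, read here as the control arm. TBT is an organotin known to activate the nuclear receptors RXR and PPARG.

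The libraries fell into 5 groups. At 10 months there were 7 adenomas (benign liver tumours) with the TBT label, 5 livers of the TBT arm and 6 livers of the VEH arm. At 5 months there were 5 livers of the TBT arm and 6 livers of the VEH arm. The labels name no strain, no dose and no litter, and no VEH adenoma was among the samples, so tumour and exposure cannot be told apart against VEH liver. Whether every library had an animal of its own is not in the labels, so a p-value here reflects only how these samples spread, and that spread may be technical. Only 2 ages were sampled, so the data cannot show whether a shift between them was steady.

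Library totals ran from 7513448 to 19270524 counts in TBT livers of 5 months, against 18603160 to 33704303 in VEH livers of that age, and from 21920649 to 32850438 in the groups of 10 months. Each of the 10 genes had at least 91 reads in every library and passed the filter on low counts. Albumin averaged 59681 ± 15814 CPM in adenomas, 79943 ± 4570 and 87207 ± 9251 CPM in TBT and VEH livers of 10 months, and 77718 ± 10465 and 77870 ± 26516 CPM in TBT and VEH livers of 5 months (SD). CPM is a count scaled to the effective size of its library, set here over all 29 libraries. Earlier results of these data had set 3 libraries of 5 months apart, replicate 4 of the TBT arm and replicates 4 and 6 of the VEH arm, for high Ly6d, which is also high in the adenomas, and low Hsd3b5, a steroid enzyme of male mouse liver. Ly6d reached 95.0 CPM in TBT and 123 CPM in VEH livers of 5 months and averaged 202 CPM in adenomas. Replicate 2 of the TBT arm at 5 months stood apart for genes of intestine. Counts of the 10 genes that rest on livers of 5 months are also given without these 3 libraries, or without all 4. Counts of some gene lists are given in this way too, an alternative that was chosen after the data were seen. Other list counts are given with all libraries only.

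The 10 genes belong to several systems of the cell. Profilin, encoded by Pfn1, binds actin monomers and feeds them to growing filaments, and twinfilin, encoded by Twf1, binds monomers and capping protein. Epb41 ties spectrin and actin to the membrane in red cells and other cells. Ap2s1 encodes the small sigma subunit of AP-2, the adaptor that links cargo to clathrin at the plasma membrane, Litaf a membrane protein of late endosomes and lysosomes, and Osbpl8 a lipid transfer protein at contacts between the endoplasmic reticulum and the plasma membrane. Nek6 is a protein kinase of mitosis. In human cells KHNYN is a cofactor of the zinc finger antiviral protein, which targets CpG-rich RNA, and the product of A230050P20Rik (RefSeq symbol Shfl) is an interferon-induced inhibitor of ribosomal frameshifting. PRR13 is a proline-rich protein that was linked to taxane response in human cancer cells.

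Promoters are shown for genes that stood apart between ages in both arms, and for Osbpl8, which was higher at 10 months, because these genes shifted between ages while belonging to unlike pathways. RefSeq promoter windows (GRCm38.p6, 250 bases before to 50 after the start) matched 8 of the 10 genes, with 11 windows in all, of which the 2 of Nek6 overlap each other. Capitals mark matches to the GC box (GGGCGG) on either strand in all of them, to the ETS site (CCGGAAGT) in Ap2s1 and to the E-box (CACGTG) in Osbpl8, and the windows are Pfn1 chr11:70654601-70654900 on the minus strand and, on the plus strand, Ap2s1 chr7:16738194-16738493, Khnyn chr14:55884692-55884991 and Osbpl8 chr10:111164552-111164851.
Pfn1: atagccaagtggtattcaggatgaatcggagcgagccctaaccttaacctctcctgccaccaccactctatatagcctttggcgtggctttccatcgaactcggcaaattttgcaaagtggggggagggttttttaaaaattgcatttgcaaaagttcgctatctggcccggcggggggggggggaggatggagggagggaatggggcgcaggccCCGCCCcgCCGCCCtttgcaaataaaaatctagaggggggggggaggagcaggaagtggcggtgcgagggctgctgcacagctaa
Ap2s1: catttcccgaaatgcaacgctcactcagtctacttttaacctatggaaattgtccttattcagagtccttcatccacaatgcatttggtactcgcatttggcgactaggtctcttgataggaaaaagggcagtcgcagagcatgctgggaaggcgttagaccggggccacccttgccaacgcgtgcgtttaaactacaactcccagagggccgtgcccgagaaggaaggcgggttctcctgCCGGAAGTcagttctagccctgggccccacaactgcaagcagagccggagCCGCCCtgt
Khnyn: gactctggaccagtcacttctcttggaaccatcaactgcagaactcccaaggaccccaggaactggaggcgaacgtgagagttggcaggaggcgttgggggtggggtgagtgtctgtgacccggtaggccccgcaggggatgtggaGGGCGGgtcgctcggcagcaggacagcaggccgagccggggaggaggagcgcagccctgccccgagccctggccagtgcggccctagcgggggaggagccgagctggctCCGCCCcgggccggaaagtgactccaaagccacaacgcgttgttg
Osbpl8: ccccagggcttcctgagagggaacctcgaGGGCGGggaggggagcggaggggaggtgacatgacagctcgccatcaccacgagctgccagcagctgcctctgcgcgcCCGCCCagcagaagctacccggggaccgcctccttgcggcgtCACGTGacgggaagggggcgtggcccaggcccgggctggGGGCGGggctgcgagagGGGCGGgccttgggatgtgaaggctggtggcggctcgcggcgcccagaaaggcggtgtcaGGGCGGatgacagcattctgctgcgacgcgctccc
A GC box stood in 10 of the 11 windows of the 10 genes, and in 35.7% of all 32851 windows. All windows were taken whether or not their gene was expressed in liver, and the share among expressed genes was not measured. The 11 windows were GC-rich, with a median of 68.3% G and C and a range of 48.0% to 82.0%, against a median of 52.7% over all windows. A CCAAT box (CCAAT) stood in 5 of the 11 windows and in 37.4% of all windows. The E-box, the ETS site and the CRE (TGACGTCA) each stood in 1 window of the 10 genes, and in 7.15%, 3.89% and 1.79% of all windows. The IRF core (GAAANNGAA), the CArG box and the NF-kB site stood in 0 windows of these genes, and in 8.56%, 1.63% and 4.51% of all windows. All motifs were searched on both strands, and no match overlapped another motif in the windows shown. A match is a description of the letters and not a bound site.

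Livers of 10 and 5 months stood apart in both arms for 5 genes: Prr13, Pfn1 and Ap2s1 were lower at 10 months, and Khnyn and A230050P20Rik were higher. The other 5, Litaf, Nek6, Epb41, Twf1 and Osbpl8, stood apart in the VEH arm, while in the TBT arm the ages overlapped. All 10 genes had the same sign of change in both arms. As a measure of the choice and not a test of it, 10 of the genes lay under an adjusted p of 0.05 (edgeR quasi-likelihood test) in VEH liver, as 19.2% of 13055 genes did, and 5 in TBT liver, as 1.78% did. Without the 3 libraries that stood apart, and without all 4, 10 of the genes lay under it in VEH liver. Over all genes 2162 of 12999 did without the 3 and 2333 of 13115 without all 4. In TBT liver 5 of the 10 did without the 3 and 4 did without all 4, when A230050P20Rik, at 0.91, did not (edgeR adjusted p = 0.0511). Over all genes 169 of 12999 and 113 of 13115 did there. The ranges of the ages were apart for 10 of the genes in VEH liver (10.3% of all genes) and for 5 in TBT liver (4.03% of all genes), on the same side in both arms for 5 (1.30% of all genes). Since the genes were chosen on these comparisons, nothing is read from these counts. By p, the genes ranked between 1 and 247 of all genes in VEH liver and between 2 and 4376 in TBT liver.

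**Figure D1:**
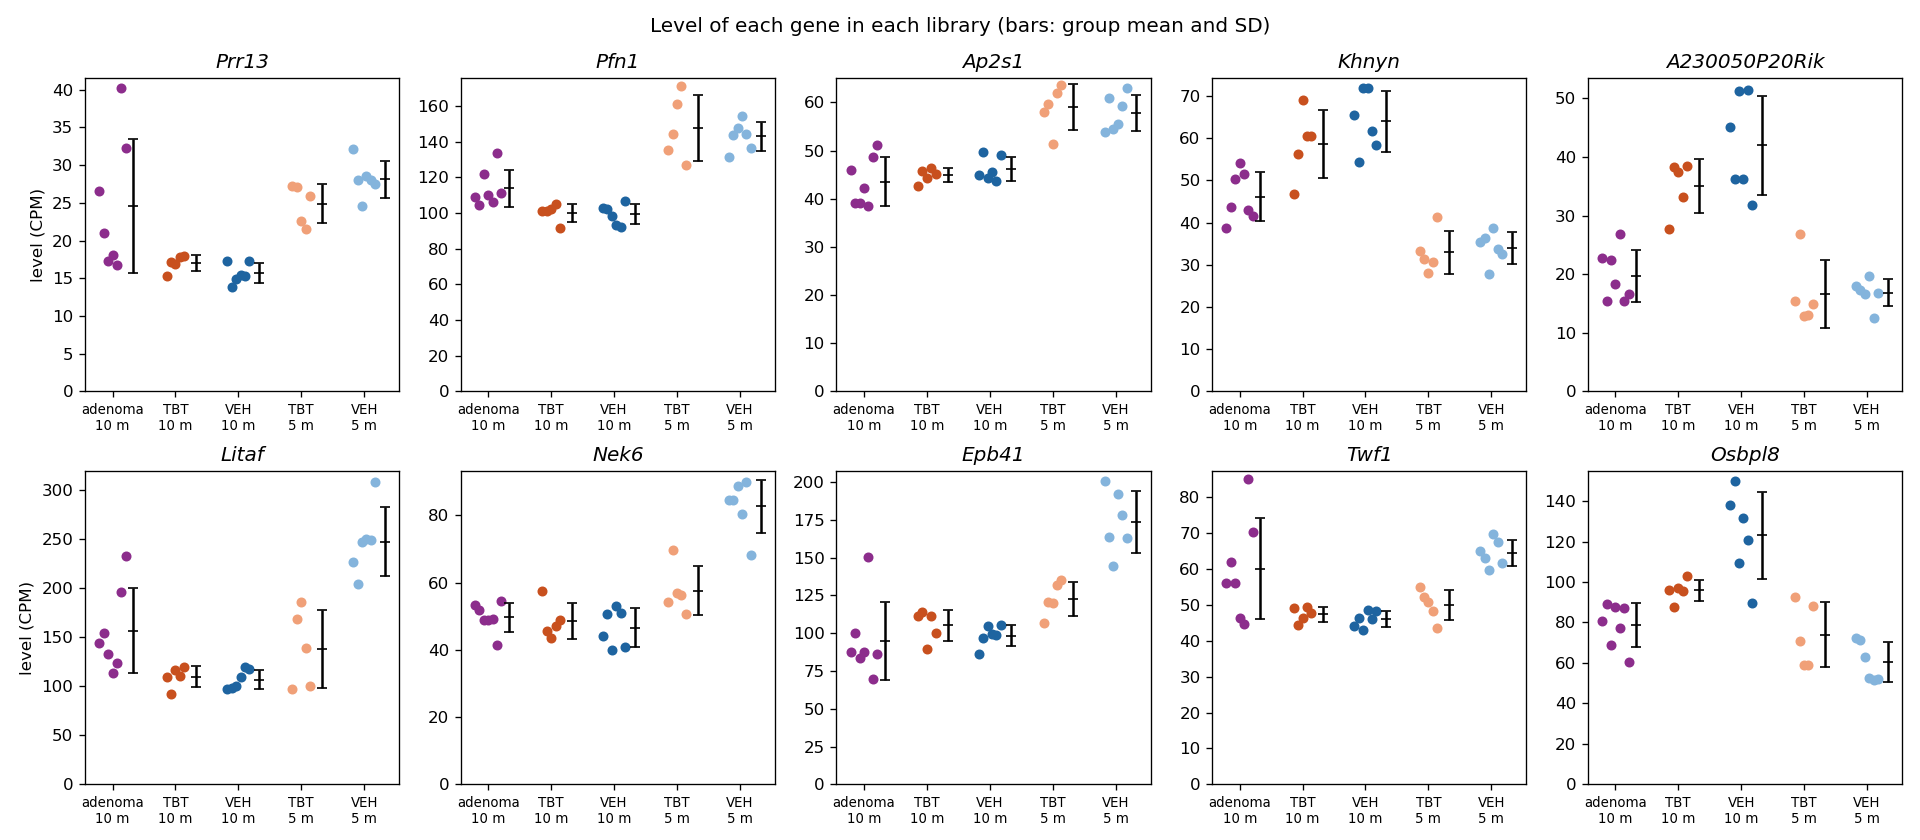
Level of each gene in CPM (y axis, from 0) in each library of the 5 groups (x axis, m for months). Points are libraries, and the bars to their right give the group mean and SD. In the upper row the livers of 10 months lie apart from those of 5 months in both arms, and in the lower row they do so in the VEH arm.

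Profilin, the actin monomer protein of Pfn1 (chr11:70651850-70654644, minus strand, GENCODE M21 on GRCm38), had 91.6, 101, 101, 102 and 105 CPM in TBT livers of 10 months and 127, 135, 144, 161 and 171 CPM in those of 5 months. In VEH livers it ran from 92.3 to 107 CPM with a median of 100.4 at 10 months, and from 132 to 154 CPM with a median of 144 at 5 months. No liver of 10 months reached the lowest liver of 5 months in either arm. The log2 fold change, 10 against 5 months, was -0.60 ± 0.09 in TBT and -0.54 ± 0.08 in VEH liver (SE). Per kilobase of exon, Pfn1 was the most abundant of the 10 genes in adenomas (47.3 CPM per kb) and in VEH livers of 5 months (59.4), and Nek6 was the least abundant in adenomas (4.65).

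Ap2s1, the AP-2 sigma subunit (chr7:16738410-16749294, plus strand), had 42.6, 44.3, 45.2, 45.8 and 46.3 CPM in TBT livers of 10 months and 51.3, 58.1, 59.6, 62.0 and 63.7 CPM in those of 5 months. In VEH livers its level was 43.8 to 49.6 CPM with a median of 45.3 at 10 months and 53.9 to 62.9 CPM with a median of 57.4 at 5 months. The shift was the smallest of the 10 in VEH liver, with a log2 fold change of -0.43 ± 0.07 in TBT and -0.34 ± 0.06 in VEH liver (SE), and the livers of one age still lay close together, with coefficients of variation from 3.24% to 8.08%.

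Prr13 (chr15:102459028-102462806, plus strand), the proline-rich gene, had 15.3, 17.0, 17.1, 17.9 and 18.01 CPM in TBT livers of 10 months, against 21.6, 22.6, 26.0, 27.2 and 27.2 CPM at 5 months. VEH livers ran from 13.8 to 17.3 CPM with a median of 15.4 at 10 months, and from 24.5 to 32.1 CPM with a median of 28.0 at 5 months. Its log2 fold change was -0.58 ± 0.09 in TBT and -0.86 ± 0.08 in VEH liver (SE), and it had the smallest p of all genes in VEH liver.

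Khnyn (chr14:55884947-55898775, plus strand), the antiviral cofactor, was higher at 10 months. TBT livers had 46.8, 56.4, 60.4, 60.5 and 69.2 CPM at 10 months and 28.0, 30.6, 31.4, 33.4 and 41.4 CPM at 5 months, and VEH livers 54.5 to 72.0 CPM with a median of 63.6 at 10 months and 27.7 to 38.8 CPM with a median of 34.5 at 5 months. The log2 fold change was 0.80 ± 0.12 in TBT and 0.89 ± 0.10 in VEH liver (SE), and each liver of 10 months lay above each liver of 5 months of its arm.

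A230050P20Rik (chr9:20868642-20874307, plus strand), the frameshift inhibitor, had the largest shift of the 10 in VEH liver. In TBT livers it had 27.8, 33.1, 37.4, 38.2 and 38.5 CPM at 10 months and 12.8, 13.0, 14.98, 15.4 and 26.8 CPM at 5 months. In VEH livers it ran from 31.8 to 51.4 CPM with a median of 40.7 at 10 months, and from 12.6 to 19.6 CPM with a median of 17.1 at 5 months. One TBT liver of 5 months, replicate 3 at 26.8 CPM, came close to the lowest TBT liver of 10 months, and the log2 fold change was 1.04 ± 0.18 in TBT and 1.30 ± 0.16 in VEH liver (SE).

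Litaf (chr16:10959275-11066157, minus strand), the endosomal membrane protein, showed the widest gap between the arms. TBT livers had 92.5, 109, 111, 117 and 119 CPM at 10 months and 97.8, 99.9, 139, 168 and 186 CPM at 5 months, so that the lowest livers of 5 months lay among those of 10 months. VEH livers ran from 96.9 to 119.5 CPM with a median of 105 at 10 months, and from 204 to 308 CPM with a median of 248 at 5 months. The log2 fold change, 10 against 5 months, was -0.37 ± 0.16 in TBT and -1.23 ± 0.15 in VEH liver (SE).

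Nek6 (chr2:38511643-38594606, plus strand), the mitotic kinase, had 43.6, 45.7, 47.1, 48.9 and 57.6 CPM in TBT livers of 10 months and 50.7, 54.1, 56.4, 57.0 and 69.8 CPM in those of 5 months, with overlap. In VEH livers it ran from 40.0 to 53.2 CPM with a median of 47.4 at 10 months, and from 68.2 to 89.8 CPM with a median of 84.6 at 5 months, with none between 53.2 and 68.2 CPM. The log2 fold change was -0.28 ± 0.10 in TBT and -0.84 ± 0.10 in VEH liver (SE).

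Epb41 (chr4:131923413-132075321, minus strand), the spectrin and actin linker, had 89.2, 100.1, 111, 111 and 114 CPM in TBT livers of 10 months and 107, 119.8, 120.4, 132 and 135 CPM in those of 5 months. VEH livers ran from 85.9 to 105 CPM with a median of 98.9 at 10 months, and from 145 to 200.4 CPM with a median of 171 at 5 months. All VEH livers of 5 months lay above every other liver, and the log2 fold change was -0.26 ± 0.10 in TBT and -0.84 ± 0.09 in VEH liver (SE).

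Twf1 (chr15:94577951-94589889, minus strand), the twinfilin gene, was nearly level with age in the TBT arm. Its values were 44.4, 46.2, 47.7, 49.0 and 49.3 CPM at 10 months and 43.6, 48.1, 50.7, 52.3 and 54.8 CPM at 5 months in TBT livers, and 43.0 to 48.6 CPM with a median of 46.1 at 10 months and 59.7 to 69.7 CPM with a median of 64.1 at 5 months in VEH livers. The log2 fold change was -0.11 ± 0.07 in TBT and -0.50 ± 0.06 in VEH liver (SE).

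Osbpl8 (chr10:111164752-111297249, plus strand), the lipid transfer protein, was higher at 10 months in VEH liver. It had 87.7, 95.4, 96.1, 96.9 and 103 CPM at 10 months and 58.9, 59.1, 71.0, 88.3 and 92.8 CPM at 5 months in TBT livers, and 89.8 to 149.7 CPM with a median of 126 at 10 months and 51.5 to 72.3 CPM with a median of 57.9 at 5 months in VEH livers. The ages overlapped in the TBT arm, and the log2 fold change was 0.34 ± 0.14 in TBT and 1.01 ± 0.13 in VEH liver (SE).

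**Figure D2:**
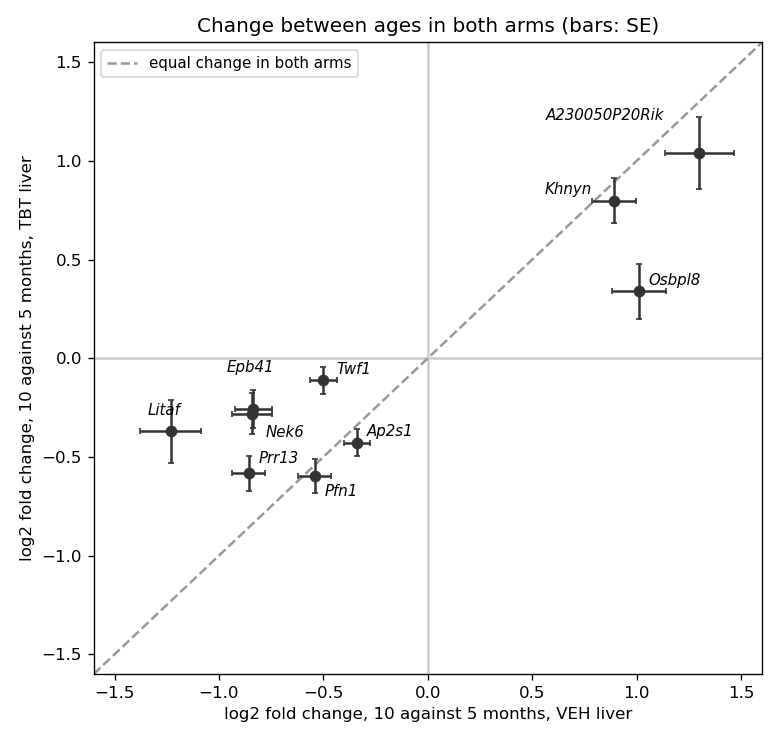
Log2 fold change of each gene, 10 against 5 months, in TBT liver (y axis) and in VEH liver (x axis), with SE bars and a dashed line of equal change. Pfn1, Ap2s1 and Khnyn lie near the line, while Litaf (-0.37 in TBT and -1.23 in VEH liver) and Osbpl8 (0.34 in TBT and 1.01 in VEH liver) lie far from it.

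Whether the age change differed between the arms was tested as an interaction in the same fit. By edgeR 0 of the 10 genes and 0 of 13055 genes passed an adjusted p under 0.05. Without the 3 libraries that stood apart, and without all 4, 0 of the 10 genes passed. At an unadjusted p under 0.05 the genes were 6 of 10, Litaf, Nek6, Epb41, Twf1, Osbpl8 and Prr13, against 8.72% of all genes. The interaction is the difference of both comparisons that chose the genes, so the count is not independent of the choice. The age change in TBT minus that in VEH liver was 0.86 ± 0.21 for Litaf, 0.58 ± 0.13 for Epb41 and -0.67 ± 0.19 for Osbpl8 (log2, SE), with edgeR adjusted p-values of 0.254, 0.234 and 0.315. DESeq2 called 4 of the 10, Epb41, Litaf, Twf1 and Nek6, among 44 genes in all, and limma-voom called 0. For Khnyn, A230050P20Rik, Pfn1 and Ap2s1 the difference ran from -0.26 to -0.05 and passed no threshold. A p that misses the threshold does not show that the arms were alike.

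TBT and VEH livers of 5 months were compared to ask whether the arms already differed at the younger age. Of the 10 genes 4 were lower in TBT livers, Litaf, Nek6, Epb41 and Twf1, against 0.957% of all genes called lower and 2.03% called in either direction. Litaf averaged 138 ± 39.7 CPM in TBT and 248 ± 34.8 CPM in VEH livers, a log2 fold change of -0.83 ± 0.15 (SE, edgeR adjusted p = 0.0148). Nek6 averaged 57.6 ± 7.22 CPM in TBT and 82.7 ± 7.88 CPM in VEH livers, with -0.51 ± 0.10 (edgeR adjusted p = 0.0160). Epb41 averaged 123 ± 11.1 CPM in TBT and 174 ± 20.6 CPM in VEH livers, with -0.49 ± 0.09 (edgeR adjusted p = 0.0150). Twf1 averaged 49.9 ± 4.27 CPM in TBT and 64.4 ± 3.73 CPM in VEH livers, with -0.35 ± 0.07 (edgeR adjusted p = 0.0150). For Litaf, Epb41 and Twf1 each of the 5 TBT livers lay below each of the 6 VEH livers, as 0.728% of all genes did, and for Nek6 the TBT liver of replicate 3, at 69.8 CPM, reached a VEH liver.

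The other 6 genes did not pass at 5 months. Osbpl8 averaged 74.0 ± 15.9 CPM in TBT and 60.6 ± 9.77 CPM in VEH livers (0.30 ± 0.13, edgeR adjusted p = 0.260), and Prr13 24.9 ± 2.64 and 28.1 ± 2.42 CPM (-0.16 ± 0.08, edgeR adjusted p = 0.371). Khnyn, A230050P20Rik, Pfn1 and Ap2s1 had log2 fold changes from -0.04 to 0.06. The VEH livers of 5 months stand in both this comparison and the age comparison that chose the genes, so the 2 are not independent. All 4 calls were present without the 3 libraries that stood apart, with log2 fold changes of -0.85 for Litaf, -0.57 for Nek6, -0.45 for Epb41 and -0.34 for Twf1. Without TBT replicate 2 as well, 2 calls were present, Litaf at -0.75 and Twf1 at -0.39, and Nek6 at -0.53 and Epb41 at -0.39 did not pass (edgeR adjusted p = 0.0574 and 0.0962). Over all genes 308 of 12999 were called without the 3 libraries and 47 of 13115 without all 4. Fitted with the livers of 5 months alone, 0 of the 10 genes passed by edgeR, among 1 gene in all, with edgeR adjusted p-values from 0.178 to 0.227 for the 4. With the adenomas in the fit 3 of the genes were called, and Twf1 did not pass (edgeR adjusted p = 0.0818). DESeq2 and limma-voom each called 4 of the 10, among 591 and 147 genes in all. The group of TBT livers of 5 months was the shallowest of the 5 groups.

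Erythroid markers were read beside Epb41, which is also a gene of the red cell. Their summed level ran from 461 to 1357 CPM in TBT and from 195 to 1181 CPM in VEH livers of 5 months, 0 of their 10 tested genes passed by edgeR in this comparison, and none of the 11 measured was at 0 over a whole group. The median of the list was 0.83 (log2) higher in TBT livers, while Epb41 was lower there. Of 7 tested intestinal markers 3 were higher in TBT livers, with a summed level of 678 to 4288 CPM in TBT and 518 to 1917 CPM in VEH livers and 2 of 14 at 0 over the VEH group, and 3 were higher without the 3 libraries that stood apart and 0 by edgeR without all 4 (1 higher and 1 lower at an unadjusted p under 0.05). Of 8 cholangiocyte markers 1 was higher, with a median of 1.70 (log2) and sums of 34.1 to 367 CPM in TBT and 43.9 to 274 CPM in VEH livers, and of 15 hepatocyte markers 1 was lower. The part of these markers in the results at 5 months was not tested.

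At 10 months 0 of the 10 genes and 0 of 13055 genes differed between TBT and VEH livers by edgeR, DESeq2 and limma-voom. At an unadjusted p under 0.05 there was 1 of the 10, Osbpl8, against 1.67% of all genes. Osbpl8 averaged 95.8 ± 5.41 CPM in TBT and 123 ± 21.5 CPM in VEH livers (-0.37 ± 0.13, log2, SE), and the ranges of the arms overlapped. The other 9 genes had log2 fold changes from -0.27 for A230050P20Rik to 0.12 for Prr13.

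Adenomas were compared with both liver groups of 10 months. Against VEH liver 4 of the genes were higher in adenomas, Prr13, Litaf, Twf1 and Pfn1, 3 were lower, A230050P20Rik, Osbpl8 and Khnyn, and Epb41, Ap2s1 and Nek6 did not pass. In this comparison 52.6% of 13474 genes were called, 27.9% higher and 24.8% lower, so that 7 of 10 is not far from the background. Against TBT liver 6 were called, the same genes without Osbpl8 and in the same directions, where 44.7% of all genes were called, 23.9% higher and 20.8% lower. The adenomas took no part in choosing the genes, but the livers of 10 months did, and both comparisons share the adenomas.

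A230050P20Rik ran from 15.4 to 26.9 CPM with a median of 18.4 in adenomas, below every liver of 10 months. Ranges below those of TBT liver were seen for 8.81% of all genes. Its log2 fold change was -0.82 ± 0.15 against TBT liver (edgeR adjusted p = 0.000278) and -1.09 ± 0.14 against VEH liver (edgeR adjusted p = 8.4e-06, SE). Khnyn ran from 38.7 to 54.0 CPM with a median of 43.6 in adenomas, below every VEH liver and overlapping the TBT livers of 10 months. It differed by -0.34 ± 0.10 against TBT (edgeR adjusted p = 0.0113) and by -0.47 ± 0.10 against VEH liver (edgeR adjusted p = 0.000568). Osbpl8 ran from 60.3 to 89.3 CPM with a median of 80.6 in adenomas and differed by -0.28 ± 0.11 against TBT (edgeR adjusted p = 0.0533) and by -0.64 ± 0.11 against VEH liver (edgeR adjusted p = 7.88e-05). These 3 genes had ranges below VEH liver, and 9.22% of all genes did.

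Prr13, Litaf and Twf1 were higher in adenomas and spread widely there, with coefficients of variation of 36.1%, 27.4% and 23.5%. Of the 7 adenomas 6, 6 and 5, in the same order, lay above every VEH liver of 10 months. Above every TBT liver of 10 months lay 5, 6 and 5. Prr13 ran from 16.8 to 40.2 CPM with a median of 21.0 in adenomas and was higher by 0.54 ± 0.18 than in TBT (edgeR adjusted p = 0.0211) and by 0.65 ± 0.17 than in VEH liver (edgeR adjusted p = 0.00369, log2, SE). Litaf ran from 114 to 233 CPM with a median of 144 and was higher by 0.52 ± 0.15 than in TBT (edgeR adjusted p = 0.00734) and by 0.56 ± 0.14 than in VEH liver (edgeR adjusted p = 0.00248). Twf1 ran from 44.5 to 85.0 CPM with a median of 56.0 and was higher by 0.35 ± 0.12 than in TBT (edgeR adjusted p = 0.0244) and by 0.39 ± 0.11 than in VEH liver (edgeR adjusted p = 0.00856). Adenomas 11 and 12 held the 2 highest levels of all 3 genes, 40.2 and 32.2 CPM for Prr13, 196 and 233 CPM for Litaf and 85.0 and 70.3 CPM for Twf1. Without adenoma 11 the log2 fold changes against VEH liver were 0.50 for Prr13, 0.50 for Litaf and 0.28 for Twf1, and each passed. Without adenoma 12 instead they were 0.59 for Prr13, 0.45 for Litaf and 0.36 for Twf1, and each passed. No fit left out these 2 adenomas alone. A fit with a replicate block, a term for each replicate number, could not use adenomas 3, 11 and 12. No liver of 10 months shares their numbers. There Prr13 was at 0.25, Litaf at 0.21 and Twf1 at 0.11 against VEH liver, and none passed (edgeR adjusted p = 0.134, 0.205 and 0.403). That fit also lacked adenoma 3, so it cannot show whether the calls rest on adenomas 11 and 12 together.

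Profilin was higher in adenomas by a small margin. It ran from 105 to 133 CPM with a median of 109.8, and differed by 0.19 ± 0.07 against TBT (edgeR adjusted p = 0.0342) and by 0.20 ± 0.07 against VEH liver (edgeR adjusted p = 0.0176, log2, SE). Against TBT liver this call was lost without adenoma 5 or 11, or TBT liver 2, 4 or 10, with an edgeR adjusted p of at most 0.0908. The call of Prr13 against TBT liver was lost without TBT liver 2 (at most 0.0514) and that of Twf1 without TBT liver 4 (at most 0.0585). With counts thinned to the smallest library Khnyn at -0.29 and Twf1 at 0.34 did not pass (edgeR adjusted p = 0.0530 and 0.0514), and Pfn1 did not pass without the filter on low counts (0.0730) or with all 5 groups in the fit (0.0558). Fitted with only the adenomas and TBT livers, Pfn1, Prr13 and Twf1 did not pass (edgeR adjusted p = 0.0588, 0.0522 and 0.0576) and Osbpl8 did (edgeR adjusted p = 0.0464). Osbpl8 also passed with limma-voom (adjusted p = 0.0498) and without adenoma 3, 6 or 11, or VEH liver 2 or 7 (edgeR adjusted p of at most 0.0478).

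Epb41, Ap2s1 and Nek6 were not called in adenomas. Epb41 ran from 70.0 to 150.4 CPM with a median of 87.2, Ap2s1 from 38.5 to 51.1 CPM with a median of 42.2 and Nek6 from 41.4 to 54.5 CPM with a median of 49.2. Their log2 fold changes against VEH liver were -0.05 ± 0.13, -0.08 ± 0.07 and 0.10 ± 0.09 (SE), and that of Epb41 was 0.02 without adenoma 11. Without adenoma 7, which had the highest Epb41, the gene was lower in adenomas than in TBT liver, with a log2 fold change of -0.29 (edgeR adjusted p = 0.0123).

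Set beside the livers of 5 months, which is a description with no test, the adenoma mean lay between the VEH means of 10 and 5 months for 8 of the 10 genes. Over all 13055 genes 24.9% had such a mean, and of the 2501 genes called between the ages in VEH liver 53.2% did, so that a choice of genes with a wide gap between the ages favours this order. A230050P20Rik averaged 19.7 ± 4.40 CPM in adenomas, 42.0 ± 8.41 CPM in VEH livers of 10 months and 16.8 ± 2.35 CPM in VEH livers of 5 months, and Prr13 24.6 ± 8.88, 15.7 ± 1.35 and 28.1 ± 2.42 CPM in the same order (SD). The exceptions were Ap2s1, at 43.5 ± 5.09 CPM in adenomas with every adenoma below every VEH liver of 5 months, and Epb41, at 94.9 ± 26.0 CPM. These orders and the comparisons above share the VEH livers of 10 months, and values are set side by side for that reason.

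**Figure D3:**
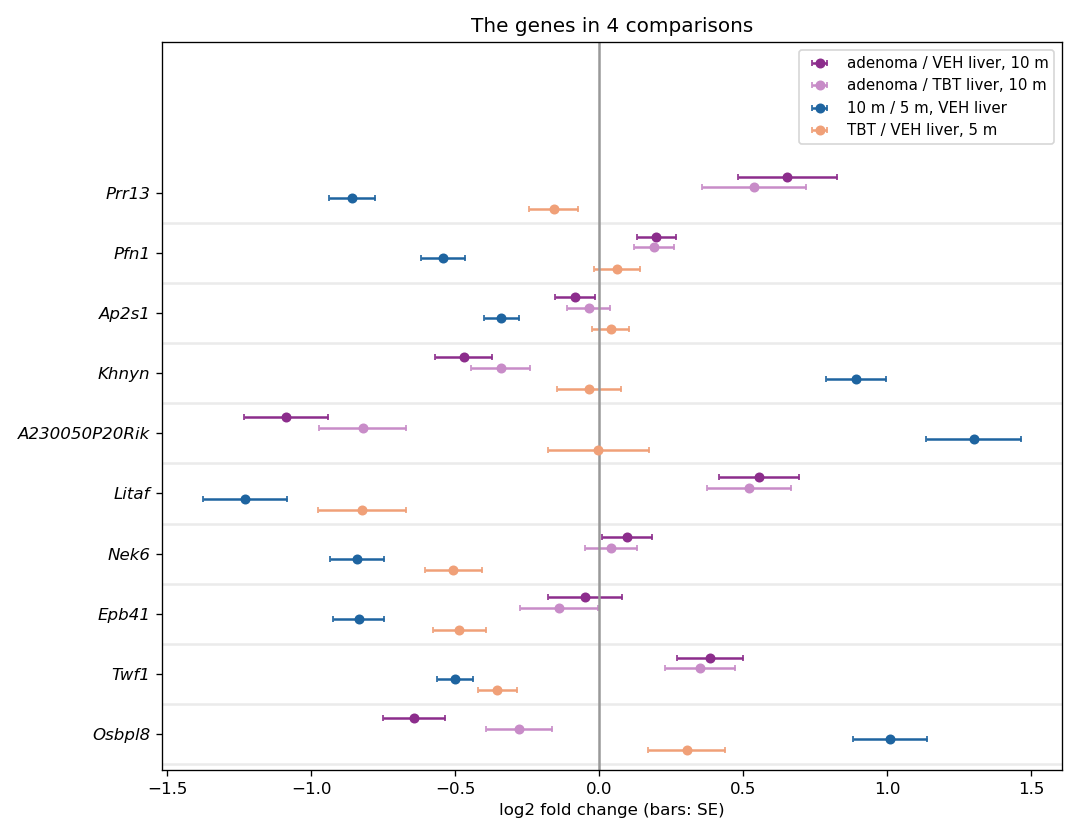
Log2 fold change (x axis, SE bars) of each gene (y axis) for adenoma against VEH and TBT liver at 10 months, for 10 against 5 months in VEH liver, and for TBT against VEH liver at 5 months. A230050P20Rik lies at -1.09 for adenoma against VEH liver and at 1.30 for age, and the comparisons share libraries.

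Adenomas differed from the livers in their cell markers. Of 15 cell cycle markers 15 were higher in adenomas than in VEH liver, with a summed level of 44.5 to 270.4 CPM in adenomas, 38.7 to 52.9 CPM in TBT and 32.8 to 64.1 CPM in VEH livers of 10 months, and 0 of them was at 0 over a group. Hepatocyte markers were lower for 9 and higher for 2 of 15 against VEH liver, with sums of 78893 to 137406 CPM in adenomas, 123562 to 145823 CPM in TBT and 134872 to 171490 CPM in VEH livers. Of 11 markers of T and NK cells 10 rose in adenomas, with a median of 1.48 (log2) and sums of 9.03 to 21.7 CPM in adenomas, 4.63 to 7.60 CPM in TBT and 4.19 to 5.70 CPM in VEH livers. Cholangiocyte markers were higher for 7 of 8, with sums of 159.8 to 769.6 CPM in adenomas, 40.3 to 63.8 CPM in TBT and 42.2 to 59.1 CPM in VEH livers. Among the other lists 8 of 13 stellate cell and fibroblast markers were higher and 1 lower, 8 of 16 macrophage markers higher and 4 lower, 4 of 6 neutrophil and monocyte markers higher, 5 of 8 intestinal markers higher, 1 of 8 B cell markers higher, 3 of 12 endothelial markers higher and 6 lower, and 4 of 9 erythroid markers lower. The part of these markers in the results was not tested, and in bulk tissue fewer cells of a type and less RNA per cell cannot be told apart.

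Between the ages fewer markers were called. In VEH liver 4 of 15 hepatocyte, 3 of 16 macrophage, 3 of 13 stellate cell and fibroblast, 2 of 12 endothelial, 1 of 8 neutrophil and monocyte and 1 of 14 cell cycle markers were lower at 10 than at 5 months, and without the 3 libraries that stood apart the counts were 2, 1, 2, 2, 1 and 0 by edgeR (of 7 markers for neutrophils and monocytes; 0 cell cycle markers also at an unadjusted p under 0.05). In TBT liver 3 of 8 cholangiocyte, 3 of 7 intestinal and 1 of 13 stellate cell and fibroblast markers were lower at 10 months, and without all 4 libraries 0 of 7, 0 of 7 and 0 of 13 passed by edgeR (at an unadjusted p under 0.05, 1 cholangiocyte and 1 stellate cell and fibroblast marker lower and 1 intestinal marker higher). Cholangiocyte markers had a median of -2.53 (log2) there and sums of 40.3 to 63.8 CPM in TBT and 42.2 to 59.1 CPM in VEH livers of 10 months, and of 34.1 to 367 CPM in TBT and 43.9 to 274 CPM in VEH livers of 5 months. Intestinal markers summed to 628 to 1511 CPM in TBT and 608 to 1019 CPM in VEH livers of 10 months, and to 678 to 4288 CPM in TBT and 518 to 1917 CPM in VEH livers of 5 months. The part of these markers in the age values was not tested.

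The pathways of the 10 genes were described from lists without the 10 genes, by counts of called genes and medians, set beside all genes, whose median age change was -0.04 in both arms (log2) and of which 9.11% were called higher and 10.0% lower in VEH liver. Among 41 regulators of actin monomers and filaments, 14 were lower and 2 higher at 10 months in VEH liver, with a median of -0.25. Without the 3 libraries of 5 months that stood apart 9 were lower and 3 higher, with a median of -0.10. Over all genes 2162 of 12999 were then called in either direction. Capzb (-0.58, edgeR adjusted p = 0.000134) and Capza1 (-0.37, 0.00283), which encode subunits of the capping protein that twinfilin binds, and Actb (-0.51, 0.00371), which encodes beta-actin, fell, and each also passed without these libraries. In TBT liver 0 of the 41 passed by edgeR and by limma-voom, 15 were lower at an unadjusted p under 0.05, 3 were lower by DESeq2, and the median was again -0.25. Of all genes 20.7% had an unadjusted p under 0.05 there, in either direction. In adenomas 25 of 42 were higher and 2 lower than in VEH liver, with Tmsb10 (1.99), which encodes a thymosin that holds actin monomers, Twf2 (1.70), the paralog of Twf1, and Actg1 (1.31) among the risers (edgeR adjusted p = 9.84e-08, 5.29e-07 and 4.74e-07).

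Most genes of the interferon response were lower at 10 months in VEH liver, where Khnyn and A230050P20Rik were higher. Of 25 genes of the interferon response, 19 were lower and 0 higher at 10 months in VEH liver by edgeR (0 higher also at an unadjusted p under 0.05 and by DESeq2 and limma-voom), with a median of -0.66, and 6 did not pass. Without the 3 libraries of 5 months that stood apart 14 were lower and 0 higher by edgeR, with a median of -0.74. Isg15 (-1.80, edgeR adjusted p = 0.000134), a ubiquitin-like protein, and Xaf1 (-1.28, 0.000131) and Oasl1 (-1.23, 0.000138) fell, while Khnyn and A230050P20Rik were higher by 0.89 and 1.30. In TBT liver the median was -0.40 and 0 of 25 passed by edgeR or limma-voom, with 13 lower at an unadjusted p under 0.05 and 5 lower by DESeq2. Of all genes 20.7% had an unadjusted p under 0.05 in that arm, in either direction. In adenomas 24 of 25 were higher than in VEH liver, with a median of 1.40, and Mx1 (2.59), Cxcl10 (2.80) and Usp18 (2.33) rose (edgeR adjusted p = 2.42e-07, 4.89e-07 and 7.68e-07), where Khnyn and A230050P20Rik were lower. T and NK cell markers, of which 10 of 11 were also higher in adenomas, moved with these genes there. With age in VEH liver 0 of the 9 tested passed by edgeR, with a median of -0.46 (log2). Of the other marker lists given above some were mostly higher, such as cholangiocyte markers (7 of 8). Others were not, such as hepatocyte markers (9 of 15 lower, 2 higher) and B cell markers (1 of 8 higher). The part of these markers was not tested. Of 18 genes that act on viral or CpG-rich RNA beside KHNYN and SHFL, 8 were lower at 10 months in VEH liver, among them Adar (-0.66), an RNA-editing enzyme, Oas3 (-1.52) and Dhx58 (-0.83), and 15 were higher in adenomas than in VEH liver (edgeR adjusted p = 0.000390, 0.000829 and 0.00112 with age).

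**Figure D4:**
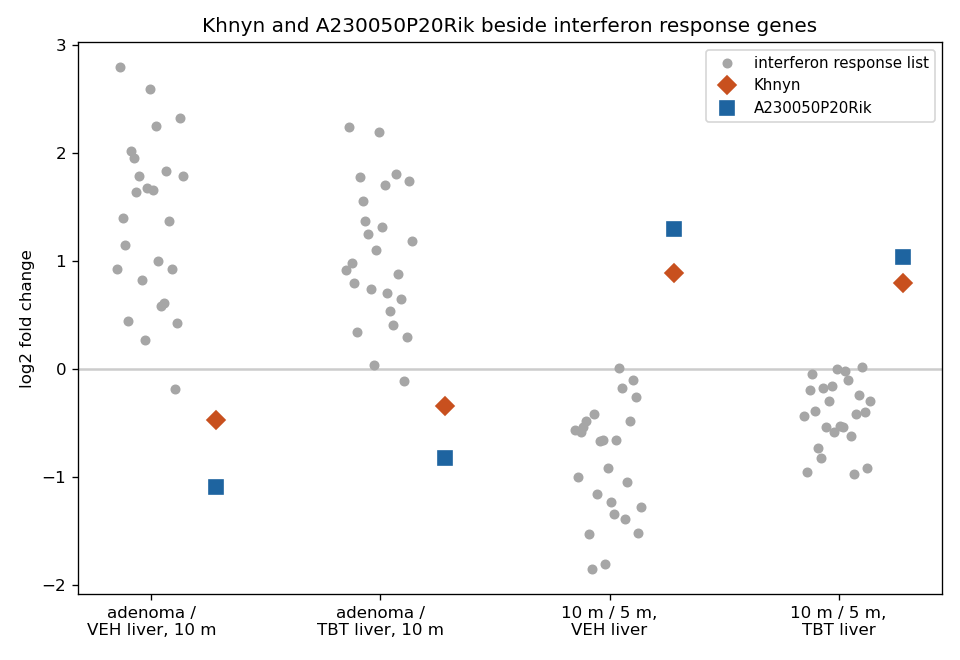
Log2 fold change (y axis) of Khnyn (diamonds), A230050P20Rik (squares) and the genes of the interferon response list (grey points, in alphabetical order) for adenoma against VEH and TBT liver of 10 months and for 10 against 5 months in VEH and TBT liver (x axis). In VEH liver 19 of the 25 list genes were called lower at 10 months, and Khnyn (0.89) and A230050P20Rik (1.30) lie above all of them.

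Fewer genes were called with age in the other pathways. In VEH liver 19.2% of all genes were called between the ages, so the list counts here are not far from the background. Of 29 genes of AP-2 and clathrin uptake, 4 were lower and 2 higher at 10 months in VEH liver. Hip1r (-1.26), which links clathrin coats to actin, and dynamin gene Dnm2 (-0.28), whose product severs coated pits, fell, while Ap2a2 (0.37), another AP-2 subunit, rose (edgeR adjusted p = 0.000550, 0.0112 and 0.00191). Of 21 oxysterol-binding and contact site genes 4 were higher and 1 lower, with Esyt2 (0.46), a tether of the same contacts as Osbpl8, higher and Osbpl9 (-0.35) lower (edgeR adjusted p = 0.00246 and 0.0136). Of 22 genes of endosome sorting around Litaf 2 were higher and 2 lower, the ubiquitin ligase gene Wwp1 (0.47) higher and the ESCRT genes Chmp4b (-0.34) and Vps28 (-0.39) lower (edgeR adjusted p = 0.00941, 0.00321 and 0.00676).

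The same lists held more calls in adenomas, where 52.6% of all genes were called against VEH liver. Of the AP-2 and clathrin genes 7 were higher and 5 lower, with Epn2 (0.55) and Hip1 (0.72), which encode adaptors of clathrin coats, higher, and Cltb (-0.44), a clathrin light chain, lower (edgeR adjusted p = 1.87e-05, 4.27e-05 and 8.65e-05). Of the oxysterol-binding and contact site genes 7 were higher and 4 lower, with Gramd1b (2.13), a cholesterol carrier of contact sites, Pitpnm1 (1.20) and Osbpl5 (1.17), a close relative of Osbpl8, higher while Osbpl8 was lower (edgeR adjusted p = 1.07e-06, 2.38e-06 and 5.21e-06). Of the endosome sorting genes 3 were higher and 9 lower, with the ubiquitin ligase genes Wwp1 (-0.68) and Itch (-0.54) and the lysosomal membrane gene Lamp2 (-0.48) lower while Litaf was higher (edgeR adjusted p = 5.39e-05, 9.18e-05 and 0.000606).

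Relatives of Nek6 and Epb41 gave few calls with age. By edgeR 0 of 8 other NEK kinases passed in VEH liver (1 higher at an unadjusted p under 0.05, 0 by DESeq2, 1 by limma-voom), and 0 of 19 other membrane skeleton genes did (2 higher and 1 lower unadjusted, 3 by DESeq2, 0 by limma-voom). Nek7, the closest relative of Nek6, had -0.19 (edgeR adjusted p = 0.168). In adenomas Nek2, a kinase of the centrosome, was higher than in VEH liver (1.67, edgeR adjusted p = 0.00115), as was Epb41l1 (2.81, edgeR adjusted p = 2.54e-08), a paralog of Epb41. Of 20 clock genes 6 were higher and 2 lower in TBT than in VEH livers of 5 months, and without the 4 libraries that stood apart 0 passed by edgeR (8 higher and 4 lower at an unadjusted p under 0.05). Times of day of the samples are not given, and the part of the clock in the results was not tested.

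Exons of 6 of the 10 genes overlap those of a gene on the opposite strand. The kit keeps strand, but no source used here gives the strand setting of the counting, so reads of such partners may not be told apart. Twf1 shares 395 bases with Irak4, 12.9% of its exon length, and Irak4, a kinase of innate immune signalling, had the same directions as Twf1 in the comparisons given here. Irak4 averaged 15.5 ± 4.21 CPM in adenomas, 12.2 ± 0.842 and 11.4 ± 0.873 CPM in TBT and VEH livers of 10 months, and 13.6 ± 3.08 and 18.6 ± 1.25 CPM in TBT and VEH livers of 5 months (SD). Its log2 fold change was -0.72 with age in VEH liver, -0.43 for TBT against VEH livers of 5 months and 0.45 for adenoma against VEH liver (edgeR adjusted p = 0.000134, 0.0450 and 0.00912). Both levels moved together with r = 0.86 over 22 livers, which fall into groups, and 0.96 over 7 adenomas. With group means removed r was 0.75 over 29 libraries. Irak4 stood at 19.9% to 34.8% of the Twf1 level in the 29 libraries.

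**Figure D5:**
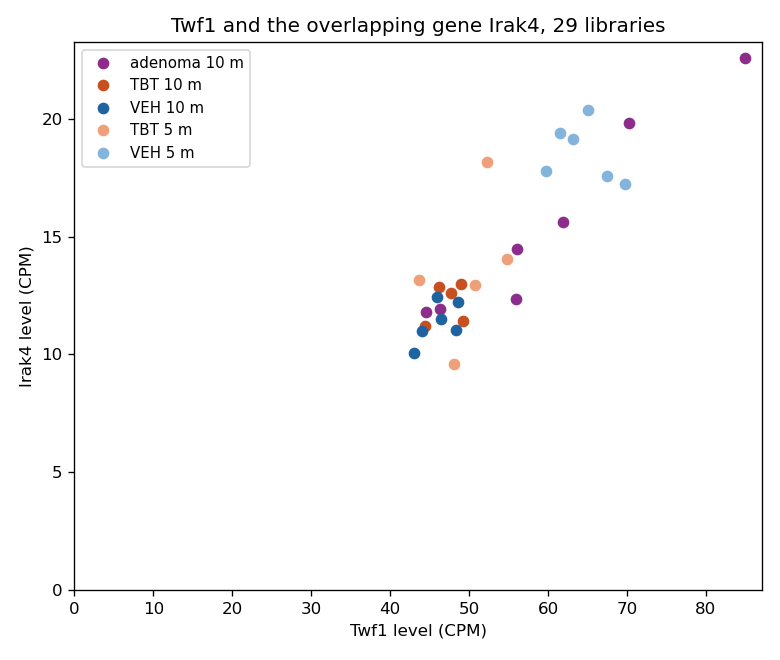
Level of Irak4 (y axis, CPM) against that of Twf1 (x axis, CPM) in 29 libraries, coloured by group (m for months). Adenoma 11 has the highest level of both genes, 85.0 CPM for Twf1 and 22.6 CPM for Irak4.

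The other partners that were tested did not pass with age in VEH liver. Khnyn overlaps Sdr39u1 over 1195 bases, 18.4% of its exons, and Sdr39u1 averaged 2.41 ± 0.264 CPM in VEH livers of 10 months and 2.43 ± 0.659 CPM in those of 5 months, far below Khnyn. A230050P20Rik overlaps Angptl6 over 265 bases, and Angptl6 had an age change of 0.09 in VEH liver (edgeR adjusted p = 0.842) and -1.50 in adenomas against VEH liver (edgeR adjusted p = 1.04e-06). Nek6 and Psmb7 overlap over 405 bases, Litaf and Snn over 95 and Epb41 and Gm10300 over 142. Psmb7 had 0.08 and Snn 0.18 with age in VEH liver (neither passed by edgeR), and -0.46 and 1.13 in adenomas against VEH liver (edgeR adjusted p = 3.35e-05 and 7.6e-05).

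The 10 genes tracked each other across the 22 livers, mainly through the groups. The 24 pairs with the same direction of age change had r from 0.57 to 0.90, with a median of 0.81, and after group means were removed their median was 0.08. The 21 pairs of opposite direction had a median of -0.75, and -0.11 with group means removed. A score per library, the mean of the 10 genes' z scores signed by their age change in VEH liver, ran from 0.55 to 0.87 in TBT and from 0.59 to 1.11 in VEH livers of 10 months, and from -0.66 to -0.17 in TBT and from -1.33 to -0.996 in VEH livers of 5 months. The 5-month arms did not overlap in this score, which the choice of genes shapes.

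Among 12943 other genes, those most like the score over the 22 livers were Mtmr3 (r = 0.93), Snhg11 (0.92), Rdx (0.92), Atl3 (0.91) and Rufy3 (0.91). Snhg11 rests on few reads. It averaged 1.31 and 1.51 CPM in TBT and VEH livers of 10 months, and 0.328 and 0.0986 CPM in those of 5 months. Rdx encodes radixin, which ties actin to the membrane, and averaged 372 and 393 CPM in TBT and VEH livers of 10 months, and 248 and 216 CPM in TBT and VEH livers of 5 months. Its correlation was 0.62 with group means removed, the highest of the 5. Most opposite were Gosr2 (-0.91), Nfkbib (-0.90), Pcbp1 (-0.90), Zbp1 (-0.90) and Rela (-0.89). Rela encodes a subunit of NF-kB and Nfkbib one of its inhibitors, and Rela averaged 28.1 and 26.7 CPM in TBT and VEH livers of 10 months, and 34.5 and 41.7 CPM in TBT and VEH livers of 5 months. These likenesses are descriptions over libraries that share groups and depth.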

How the data were processed

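Adenoma and liver RNA was sequenced after stranded total RNA library preparation, per the labels' protocols. The authors deposited raw integer counts of reads for each coding gene. The submitters' processing notes name HISAT2, featureCounts, edgeR, FastQC, Trim Galore and build mm10, with no version, and no source used here gives the strand setting. Replicate numbers come from the titles. For 1 TBT liver of 10 months the title and column differ, and the column's 9 was used.

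Counts were tested with edgeR 4.0.16 in R 4.3.3 (filterByExpr, minimum count 10 and total 15, TMM, robust quasi-likelihood, two-sided, Benjamini-Hochberg adjustment over all genes, threshold 0.05). One fit held the 22 livers and 13055 genes, another the 18 libraries of 10 months and 13474 genes. Alternatives were DESeq2 1.42.0, limma-voom 3.58.1, other scaling, filters, groups, a replicate block, thinned counts and left-out libraries; list counts without the libraries that stood apart were added after the data were seen. The tests were tested on simulated data. Of 71 replicate pairs 0 were identical. Log2 CPM used a prior count of 2. Other genes named are, by rule, those with the smallest p per list with age in VEH liver or in adenomas, and those most like the score. The clock genes that this rule names are not reported here. Alb, Nek7, overlapping genes and genes that set libraries apart were named after their values were seen. The 10 genes, lists and alternatives were chosen with earlier results of these data known. Coordinates are 1-based (GENCODE M21, GRCm38).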

Additional observations from a re-analysis of the deposited data

Results flagged for a closer look

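Of the 50 sets of values given by 10 genes in 5 groups, 3 held a library far from the others of its group, where chance gives about 1 in 20. A230050P20Rik stood at 26.8 CPM in the TBT liver of 5 months with replicate number 3, while the other 4 lay between 12.8 and 15.4 CPM. Epb41 stood at 150.4 CPM in adenoma 7, while the other 6 lay between 70.0 and 99.8 CPM. Nek6 was lowest in adenoma 11 at 41.4 CPM, while the other 6 lay between 49.0 and 54.5 CPM. No difference in age change between the arms passed by edgeR, so none is listed here.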

How the results depend on the processing

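Under the alternatives the counts of the 10 genes called moved by over 1.5 times in these cases. For age in TBT liver the count was 0 with only the groups compared and 0 with the replicate block (5 as reported). For the interaction it was 4 with DESeq2 (0 as reported). At 5 months it was 0 with only the groups compared, 0 with the block and 2 without the 4 libraries that stood apart (4 as reported). Against VEH liver the adenomas gave 3, and against TBT liver 0, with the block (7 and 6 as reported). Adenomas and TBT livers of 10 months share no replicate number, so the block compares them only through VEH livers. Its count against TBT liver therefore cannot show whether that result depends on pairing. TBT livers 8, 9 and 10 of 10 months have numbers that no other liver has. With the block, age in TBT liver thus rested on livers 2 and 4 at 10 months. Adenoma against VEH liver rested on adenomas 1, 5, 6 and 7, whose numbers VEH livers share. These counts too cannot tell pairing from the loss of libraries. Same-numbered samples did not all deviate together (correlations from -0.47 to 0.67), so the numbers were not taken to pair the samples. Smaller moves were a count of 4 for age in TBT liver without the 4 libraries or with all 5 groups (5 as reported), of 3 at 5 months with all 5 groups (4 as reported), and against TBT liver of 4 with only the groups compared or thinned counts, 5 with no filter or all 5 groups and 7 with limma-voom (6 as reported). With each library left out in turn the counts stayed at 10 and 5 for age in VEH and TBT liver, 0 for the interaction, 4 at 5 months, 0 at 10 months and 7 for adenoma against VEH liver, and ran from 4 to 7 against TBT liver.

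Signs turned for Epb41 in adenoma against VEH liver, at 0.0301 with the block, 5.83e-05 with thinned counts, 0.0155 without adenoma 11, and from -0.195 to 0.0155 with each library left out, and for Nek6 against TBT liver at -0.0906 with the block. The cause was not tested. Over all genes, age in TBT liver gave 232 calls, 843 with DESeq2, 35 with limma-voom, 401 with all 5 groups, 70 thinned, 113 without 4 libraries, 0 with only the groups compared or the block, and 14 to 801 with a library left out. TBT against VEH at 5 months gave 265 calls, 591 with DESeq2, 147 with limma-voom, 165 thinned, 47 without 4 libraries, 31 with the block, 1 with only the groups compared, and 71 to 414 with a library left out. The block gave 1460 calls for age in VEH liver (2501 as reported), 4359 for adenoma against VEH (7090) and 63 against TBT liver (6026). The last of these comparisons was reached only through VEH livers, as said above. Each count with the block rested only on libraries whose number another library of the fit shares. With all libraries thinned to the smallest the counts of the 10 genes were 4 at 5 months and 5 for age in TBT liver.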
